A study of Mus musculus with 2 samples.

Results

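The genes described here are 10 genes of white and brown fat cells, Plin1, Cidec, Fabp4, Car3, Pck1, Ucp1, Adipoq, Cfd, Retn and Lep. They were taken by gene symbol from 23282 rows of counts, and all 10 matched 1 row each and reached the minimum summed count of 20 that made a gene measured. RNA came from dorsal root ganglia, the clusters of sensory neuron cell bodies beside the spinal cord, of wild-type mice. The labels give neurons as the cell type. In the AEW group dry skin was produced with acetone, ether and water for 5 consecutive days, and the control group received water. Ganglia were taken on day 6, and RNA of 6 mice was pooled for each of the 2 libraries. The sources used here do not give the age, sex or strain of the mice or the site of treatment. With 1 pool per group no difference has a replicate check, and the treatment cannot be told apart from anything else that set the pools apart, such as dissection.

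White adipocytes store triglyceride in a single large droplet and secrete hormones that report on energy stores. Brown adipocytes hold many mitochondria, in which uncoupling protein 1 lets protons leak across the inner membrane so that fuel is burned as heat. Fat lies around peripheral nerves and within the skin. Many of these genes are under the control of the nuclear receptor PPARγ and of C/EBP transcription factors.

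The AEW library held 14376228 counts and the water library 9333882. Counts were divided by library sizes scaled with TMM, a method that sets the bulk of genes to equal levels, and are given as scaled CPM (counts per 1000000). A gene was called when AEW and water levels were at least 1.5-fold apart and the exact 95% interval of their ratio excluded 1. Intervals cover counting error only. Of 14854 measured genes, 17.3% were called higher and 14.9% lower, and the median log2 ratio was 0.03. These shares are the background for each count of genes called with this rule and TMM below. Of these calls 53.7% were higher, against 6.96% when the libraries were scaled on pan-neuronal markers instead. Neuronal, skin, muscle and immune transcripts differed widely between the libraries and are set beside the fat cell genes below.

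All 10 genes were detected in both libraries, none at 0. Of the 10, 4 were called higher in the AEW library (Pck1, Ucp1, Retn and Fabp4), beside 17.3% of all measured genes, and 0 were called lower, beside 14.9%. Scaled on pan-neuronal markers instead, 0 were called higher, beside 4.1% of all measured genes, and 5 lower, beside 54.8%. With TMM the other 6 were not called, and 5 of them, Plin1, Cidec, Car3, Cfd and Adipoq, had ratios between 0.789 and 1.08. The median log2 ratio of the 10 genes was 0.11. Together the genes had 5361 counts in the AEW library and 2757 in the water library, which is 0.0373% (exact binomial interval 0.0363 to 0.0383) and 0.0295% (0.0284 to 0.0307) of all counts. The summed level was 361.7 CPM in the AEW library and 304.5 CPM in the water library, a ratio of 1.19 (1.13 to 1.24). Without Fabp4 the ratio of the sum was 1.07 (1.02 to 1.13), and without Cfd it was 1.26 (1.19 to 1.34). In a bulk library, more fat cells and more RNA per fat cell cannot be told apart.

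**Figure D1:**
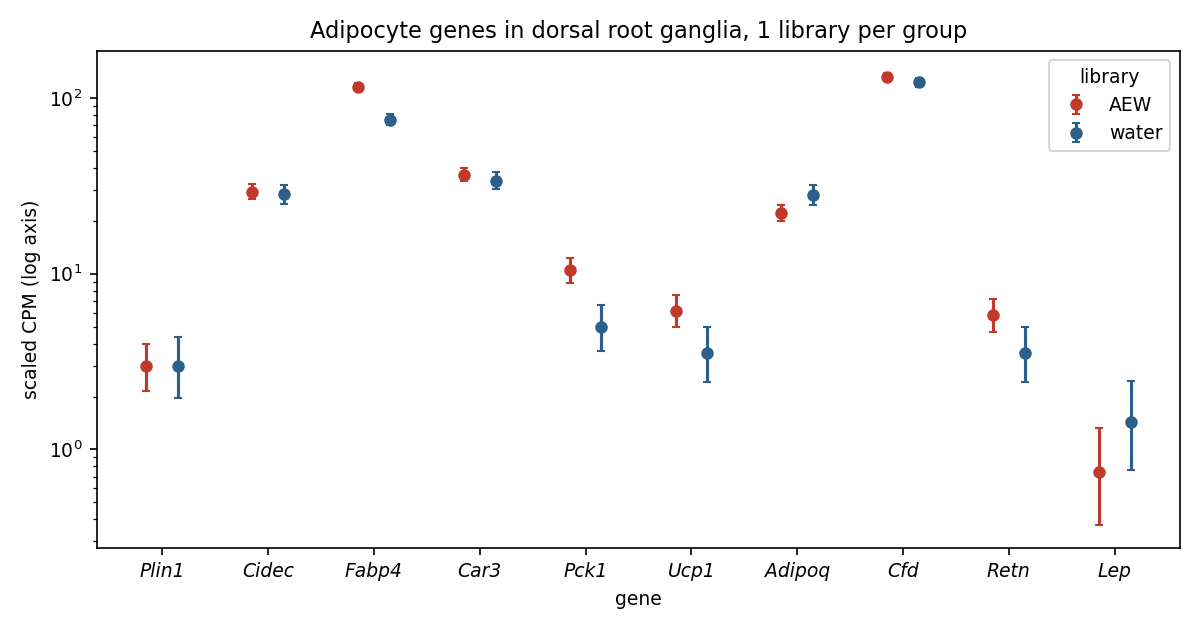
Level of each of the 10 genes in the AEW library (red, left) and the water library (blue, right) as scaled CPM on a log axis, with exact 95% Poisson intervals of the count and 1 library per group. Pck1 had 10.5 CPM in the AEW library and 4.97 CPM in the water library and Fabp4 115.9 and 75.2 CPM, with intervals that do not meet (scaled on pan-neuronal markers the Fabp4 ratio is 0.935). The intervals of Adipoq, lower in the AEW library (19.8 to 24.66 CPM) than in the water library (24.71 to 31.7 CPM), also do not meet. The points of Plin1, Cidec and Car3 lie close together.

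Promoter windows were available from RefSeq (build GRCm38.p6) for 8 of the 10 genes, from 250 bases before to 50 bases after the annotated start. The windows of 3 genes called higher (Pck1, Ucp1, Retn) and of both genes with the lowest ratios (Lep, Adipoq) are shown, since both sets are fat cell genes and their readouts went apart. Sequences run 5′ to 3′ on the strand of the gene. Capitals mark matches on either strand to 4 patterns. They are TATAAA (1 form of the TATA box) and AGGTCA (the half-site of PPARγ and other nuclear receptors). The others are TTNNGNAA (a loose C/EBP pattern) and TTACGTCA (1 form of the cyclic AMP response element). A direct repeat of AGGTCA spaced by a single base was also searched. It contains the half-site and overlaps it.
Pck1 (chr2:173152823-173153122, plus strand): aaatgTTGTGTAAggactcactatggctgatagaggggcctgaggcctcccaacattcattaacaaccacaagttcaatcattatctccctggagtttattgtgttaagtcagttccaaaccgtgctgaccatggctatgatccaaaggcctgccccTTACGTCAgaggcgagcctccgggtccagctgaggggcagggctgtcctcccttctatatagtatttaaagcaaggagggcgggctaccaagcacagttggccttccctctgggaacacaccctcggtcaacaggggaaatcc
Ucp1 (chr8:83290098-83290397, plus strand): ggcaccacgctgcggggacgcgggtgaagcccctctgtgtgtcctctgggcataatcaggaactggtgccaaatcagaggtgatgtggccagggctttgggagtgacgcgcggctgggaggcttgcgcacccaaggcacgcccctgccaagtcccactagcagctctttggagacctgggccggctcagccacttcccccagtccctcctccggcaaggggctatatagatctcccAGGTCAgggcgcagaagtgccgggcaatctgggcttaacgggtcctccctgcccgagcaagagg
Retn (chr8:3655520-3655819, plus strand): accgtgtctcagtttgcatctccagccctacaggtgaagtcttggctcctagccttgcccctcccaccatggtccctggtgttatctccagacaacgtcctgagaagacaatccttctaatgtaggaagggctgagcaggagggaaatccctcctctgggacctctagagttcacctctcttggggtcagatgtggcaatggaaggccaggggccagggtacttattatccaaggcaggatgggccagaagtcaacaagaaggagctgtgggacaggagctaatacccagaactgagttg
Lep (chr6:29059971-29060270, plus strand): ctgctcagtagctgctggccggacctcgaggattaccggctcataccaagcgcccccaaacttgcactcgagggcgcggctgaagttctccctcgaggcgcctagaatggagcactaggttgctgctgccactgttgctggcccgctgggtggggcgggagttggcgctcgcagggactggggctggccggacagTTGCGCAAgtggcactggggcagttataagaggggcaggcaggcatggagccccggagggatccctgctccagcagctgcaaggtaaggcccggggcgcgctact
Adipoq (chr16:23146286-23146585, plus strand): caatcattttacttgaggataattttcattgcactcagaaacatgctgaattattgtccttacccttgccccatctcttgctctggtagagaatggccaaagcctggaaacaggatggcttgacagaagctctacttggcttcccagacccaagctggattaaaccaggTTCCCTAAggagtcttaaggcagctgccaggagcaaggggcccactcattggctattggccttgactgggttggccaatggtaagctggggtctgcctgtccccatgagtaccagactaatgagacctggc

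Pck1 held TTACGTCA, which starts 93 bases before its start site, a match found in 0.499% of 32851 promoter windows. Only this form of the element was searched, so the share does not weigh the match in Pck1. The C/EBP pattern lay in the windows of 5 of the 8 genes, Pck1, Lep, Cidec, Plin1 and Adipoq, and in 40.7% of all windows. In Lep its match, TTGCGCAA, reads the same on both strands. AGGTCA lay in the Ucp1 window, 14 bases before the start, and in 16.3% of all windows. The exact letters TATAAA were in 0 of the 8 genes' windows and in 13.6% of all, and the direct repeat in 0 and in 0.0396%. Other forms of the TATA box were not searched, so a window without TATAAA can still hold one. Retn and Cfd held none of the patterns. The C/EBP pattern thus stood in Pck1, called higher, and in 4 genes that were not called, and was absent from Ucp1 and Retn, called higher. TTACGTCA and AGGTCA each stood in 1 gene, Pck1 and Ucp1, both called higher, and 1 gene each cannot tie the letters to the calls. Any part of these letters in the ratios was not tested.

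With TMM, RNA of the droplet protein genes Plin1 and Cidec did not differ beyond counting error. Plin1 encodes perilipin 1, which coats the fat droplet and gates access of lipases (ENSMUSG00000030546.14, chromosome 7, 79720218 to 79732903, minus strand, mm10). Counts were 44 with AEW and 27 with water, or 2.97 and 2.98 CPM, a ratio of 0.996 (0.603 to 1.67). Cidec encodes a protein that lets small droplets merge into large ones (ENSMUSG00000030278.11, chromosome 6, 113424634 to 113435760, minus strand). It had 434 counts in the AEW library and 256 in the water library, or 29.3 and 28.3 CPM, a ratio of 1.04 (0.885 to 1.21). Cidec was estimated more tightly than Plin1 because it had more counts, and both intervals include 1. Scaled on pan-neuronal markers, Cidec had a ratio of 0.628 (0.537 to 0.736) and was called lower. Plin1 then had 0.604 (0.366 to 1.01) and was not called.

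The enzymes and carriers of fat cells divided. Fabp4, the fatty acid carrier of the adipocyte cytosol (ENSMUSG00000062515.3, chromosome 3, 10204088 to 10208576, minus strand), is also made outside fat. Counts were 1717 with AEW and 681 with water. Its level was 115.9 CPM in the AEW library and 75.2 CPM in the water library, 1.54-fold higher (1.41 to 1.69), just past the threshold. Pck1, the cytosolic phosphoenolpyruvate carboxykinase that makes the glycerol backbone of triglyceride in fat (ENSMUSG00000027513.11, chromosome 2, 173153048 to 173159273, plus strand), showed the largest ratio among the 10 genes. It had 155 counts in the AEW library and 45 in the water library, or 10.5 and 4.97 CPM, 2.10-fold higher (1.501 to 3.002). Pck1 is also a gluconeogenic enzyme of liver and kidney. Car3, a carbonic anhydrase abundant in fat and skeletal muscle (ENSMUSG00000027559.5, chromosome 3, 14863512 to 14872523, plus strand), had 542 counts in the AEW library and 306 in the water library. At 36.6 CPM in the AEW library and 33.8 CPM in the water library its ratio was 1.08 (0.939 to 1.25), so it was not called.

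Ucp1, the uncoupling protein that defines thermogenic brown and beige adipocytes (ENSMUSG00000031710.4, chromosome 8, 83290352 to 83298452, plus strand), was low but present in both libraries. It had 91 counts in the AEW library and 32 in the water library, or 6.14 and 3.53 CPM. That is 1.74-fold higher (1.15 to 2.69), a call whose interval reaches close to 1. Of its relatives, Slc25a14, a mitochondrial carrier of the same family, was called higher, at 659 counts in the AEW library and 260 in the water library (1.55-fold, 1.34 to 1.79), while Ucp2, Ucp3 and Slc25a27 were not called. Ucp2, found in many tissues, had 41.9 CPM in the AEW library and 52.9 CPM in the water library, a ratio of 0.79 (0.70 to 0.89). Ucp3, of muscle and brown fat, had 17 counts in the AEW library and 8 in the water library, a ratio of 1.30 (0.53 to 3.48).

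The secreted products of fat cells had ratios on both sides of 1. Adipoq, the gene of adiponectin (ENSMUSG00000022878.5, chromosome 16, 23146536 to 23158028, plus strand), had 328 counts in the AEW library and 254 in the water library. Its level of 22.1 CPM in the AEW library against 28.1 CPM in the water library gave a ratio of 0.789 (0.668 to 0.933), an interval below 1 but a difference under the 1.5-fold threshold. Cfd, the gene of adipsin or complement factor D (ENSMUSG00000061780.6, chromosome 10, 79890853 to 79892655, plus strand), had 1953 counts in the AEW library and 1111 in the water library. At 131.8 CPM in the AEW library and 122.7 CPM in the water library it had a ratio of 1.07 (0.997 to 1.16). Cfd and Fabp4 thus carried most of the summed counts in both libraries.

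Retn, the gene of resistin, which in the mouse is made mainly by white adipocytes (ENSMUSG00000012705.16, chromosome 8, 3655770 to 3660110, plus strand), had 86 counts in the AEW library and 32 in the water library. Its level was 5.80 CPM in the AEW library and 3.53 CPM in the water library, 1.64-fold higher (1.08 to 2.55). Lep, the gene of leptin (ENSMUSG00000059201.12, chromosome 6, 29060220 to 29073877, plus strand), had the fewest counts, with 11 in the AEW library and 13 in the water library. Its ratio of 0.517 (0.2097 to 1.25) has a wide interval that includes 1 with TMM, so Lep was not called. Scaled on pan-neuronal markers Lep had 0.314 (0.127 to 0.759) and was called lower. Within the annotation (GENCODE M21, mm10) none of the 10 loci overlaps another gene. The sources used here do not say how reads matching several places were counted, so reads could be split with close relatives.

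Relatives of the 10 genes were called in both directions at about the shares of all measured genes, and both measured relatives of Retn were called lower. Retnlg, expressed in neutrophils, had 21.5 CPM in the AEW library and 59.1 CPM in the water library, 2.75-fold lower (2.39 to 3.17). Retnla, of macrophages and fat stroma, had 11.2 CPM in the AEW library and 24.7 CPM in the water library, 2.21-fold lower (1.80 to 2.72). Fabp5, the epidermal relative of Fabp4, had 270.7 CPM in the AEW library and 148.0 CPM in the water library, 1.83-fold higher (1.72 to 1.95). Pck2, the mitochondrial form of the Pck1 enzyme, had a ratio of 1.44 (1.22 to 1.69) and was not called. Of 22 measured relatives of the 10 genes, calls were 4 higher and 4 lower, 14 had no call, and the median log2 ratio was 0.22. Of all measured genes 17.3% were called higher and 14.9% lower.

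**Figure D2:**
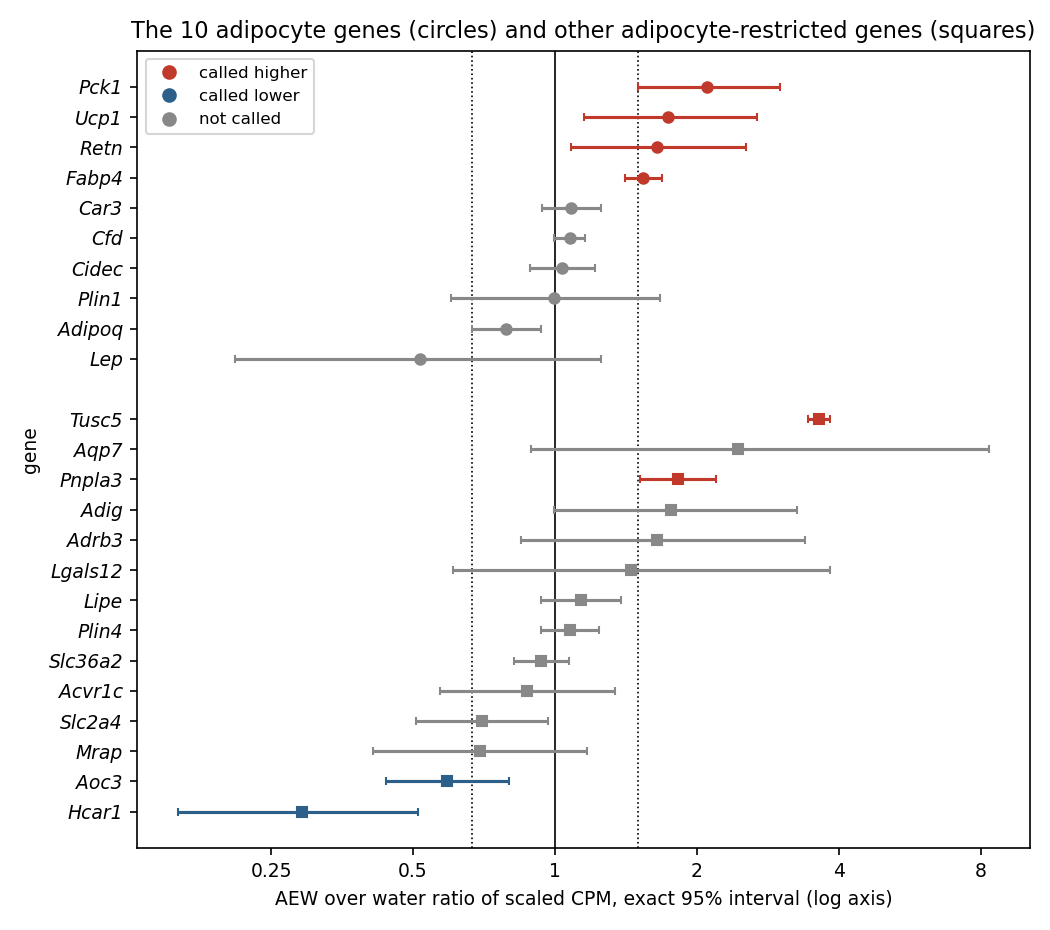
AEW over water ratio (log axis) with exact 95% intervals for the 10 genes (circles) and 14 other measured genes listed as adipocyte-restricted (squares), some also made outside fat. Dotted lines mark 1.5-fold in each direction. Pck1, Ucp1, Retn and Fabp4 lie to the right of the upper line. Adipoq, Lep and, barely, Plin1 (0.996) lie to the left of 1. The intervals of low-count genes such as Lep (0.2097 to 1.25) are wide. Set against pan-neuronal markers, every ratio is lower by 0.72 on the log2 scale. Of the 10 genes only Pck1 (1.28) and Ucp1 (1.05) then lie above 1.

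Ratios between genes within a library need no scaling, and they show how far the 10 genes kept their proportions. Of 45 pairs, 23 had an AEW to water ratio of proportions whose exact conditional 95% interval excluded 1. Of these, 20 were among the 24 pairs of 1 gene called higher and 1 not called. Another 3 were among the 15 pairs with neither gene called, and 0 among the 6 with both called. The count thus largely follows the calls, and the share for pairs of other genes was not computed. The differing pairs named next are set per Adipoq, the only 1 of the 10 genes with an interval below 1. Pck1 per Adipoq was 0.473 in the AEW library and 0.177 in the water library, a 2.67-fold difference (1.82 to 3.95). Fabp4 per Adipoq was 5.23 in the AEW library and 2.68 in the water library (1.95-fold, 1.61 to 2.36). Ucp1 per Adipoq was 0.277 in the AEW library and 0.126 in the water library (2.202-fold, 1.40 to 3.52). In contrast, Car3 per Cfd was 0.278 in the AEW library and 0.275 in the water library, and the difference was 1.01-fold (0.86 to 1.18).

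**Figure D3:**
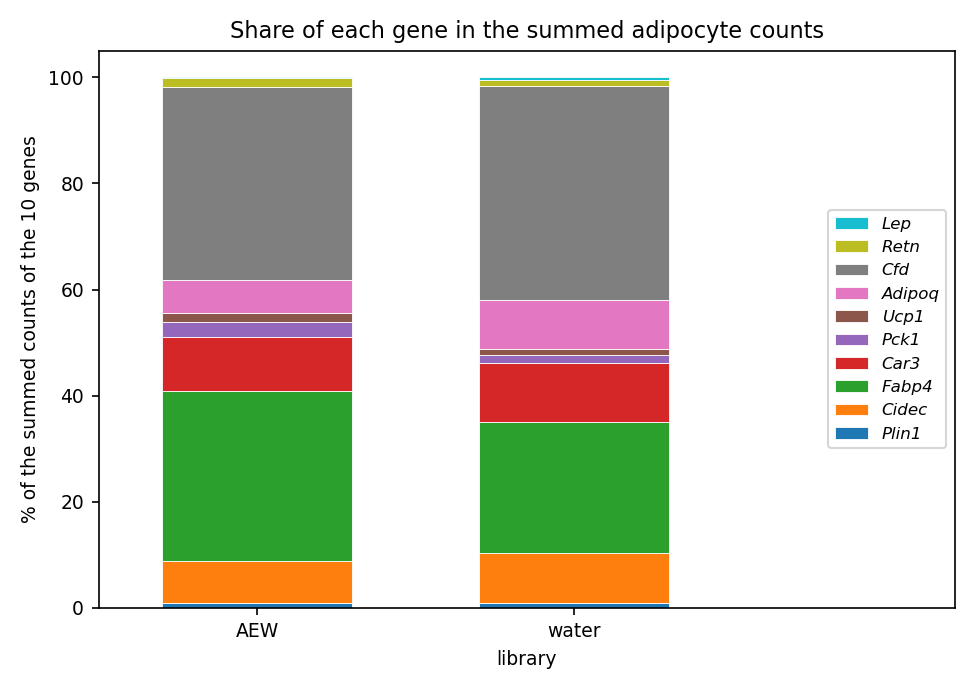
Share of each gene, in percent, in the summed counts of the 10 genes in the AEW library (left) and the water library (right). Fabp4 made up 32.0% in the AEW library and 24.7% in the water library, Cfd 36.4% and 40.3%, and Adipoq 6.12% and 9.21%.

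Other genes listed as adipocyte-restricted, some of them also made outside fat, were called in both directions. Of 14 measured, 2 were called higher (Tusc5 and Pnpla3), 2 lower (Hcar1 and Aoc3), and the median log2 ratio of the list was 0.14. These counts lie near the shares of all measured genes, 17.3% higher and 14.9% lower. Tusc5, a regulator of the insulin-responsive glucose transporter that is also known from sensory neurons, had 616.4 CPM in the AEW library and 170.0 CPM in the water library, 3.63-fold higher (3.44 to 3.83). Pnpla3, a droplet lipase relative, had 31.0 CPM in the AEW library and 17.0 CPM in the water library, 1.82-fold higher (1.51 to 2.1999). Hcar1, the lactate receptor that restrains lipolysis, had 19 counts in the AEW library and 40 in the water library, 3.45-fold lower (1.95 to 6.30). Aoc3, a surface amine oxidase of fat and smooth muscle, was 1.69-fold lower (1.25 to 2.29). Lipe, Plin4 and Adrb3, genes of droplets and lipolysis in the same list, were not called. Lipe, hormone-sensitive lipase, had a ratio of 1.14 (0.94 to 1.38), Plin4, a further perilipin, of 1.07 (0.93 to 1.24), and Adrb3, the adrenergic receptor that triggers lipolysis in fat, of 1.64 (0.85 to 3.39) at 35 and 13 counts.

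Genes of the brown and beige programme were called in both directions. Of 19 measured, 5 were called higher (Cidea, Elovl3, Kcnk3, Plin5 and Pank1) and 9 lower, and the median log2 ratio was -0.24. The shares of all measured genes were 17.3% higher and 14.9% lower. Dio2, the enzyme that activates thyroid hormone in brown fat, had 6.48 CPM in the AEW library and 15.2 CPM in the water library, 2.35-fold lower (1.80 to 3.09). Ppargc1a and Prdm16, transcriptional regulators of thermogenesis, were 1.59-fold (1.36 to 1.87) and 1.72-fold (1.40 to 2.11) lower. Cox7a1 and Cox8b, respiratory chain subunits shared by brown fat and muscle, were 1.82-fold (1.49 to 2.22) and 3.30-fold (2.48 to 4.42) lower. Zic1, a transcription factor of classical brown fat that neural tissue also expresses, was 2.50-fold lower (2.07 to 3.03). The other 3 called lower were Ebf2, Cpt1b and Otop1.

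Beside these brown fat genes, markers of other tissues moved in both directions. Cidea and Elovl3, which brown fat shares with the sebaceous gland of skin, had 313 and 305 counts in the AEW library against 52 and 4 in the water library, 3.68-fold (2.73 to 5.03) and 46.6-fold (18.0 to 172.1) higher. In the list of sebaceous gland markers 6 of 10 measured genes were called higher and 0 lower. Cidea and Elovl3 belong to this list and are among the 6, so the count is not separate from them. The median log2 ratio was 2.85, or 1.95 with genes at 0 set to their lower bound. Krt79, a keratin of the gland duct, had 634 counts in the AEW library and 2 in the water library, a ratio of 193.7 (53.4 to 1602.6). Awat1, a wax ester synthase, had 224 counts in the AEW library and 0 in the water library, at least 45.6-fold higher against a floor of 3 counts per library. Far2 and Soat1 of the same list had ratios of 0.794 (0.725 to 0.871) and 0.788 (0.686 to 0.907), neither called. The 13 matched genes of the list summed to 372.5 CPM in the AEW library and 268.8 CPM in the water library. All 16 measured keratinocyte markers were called higher, with a median log2 ratio of 6.93, or 4.98 with genes at 0 set to their bound. Their sum was 849.5 CPM in the AEW library and 38.2 CPM in the water library, and 5 of the 17 matched were at 0 in the water library. The part of skin RNA in the ratios of the fat cell genes was not tested.

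Skeletal muscle shares Car3, Cox7a1, Cox8b and Cpt1b with fat, and most of its markers were lower in the AEW library. Of 17 measured muscle markers 12 were called lower and 0 higher (median log2 ratio -1.13), with a summed level of 1049.9 CPM in the AEW library and 2373.7 CPM in the water library. Myh4, a fast myosin, was 2.95-fold lower (2.79 to 3.12) and Actn3, an actin cross-linker of fast fibres, 3.82-fold lower (3.17 to 4.61). Car3 itself had a ratio of 1.08, and the part of muscle in it was not tested. Fabp4 is also made by capillary endothelium and macrophages. Of 12 endothelial markers 3 were called lower and 0 higher (median -0.10), summing to 223.4 CPM in the AEW library and 247.8 CPM in the water library. Of 15 macrophage markers 14 were called lower and 0 higher (median -1.37), summing to 314.4 CPM in the AEW library and 843.4 CPM in the water library. The part of these cells in the Fabp4 ratio was not tested.

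**Figure D4:**
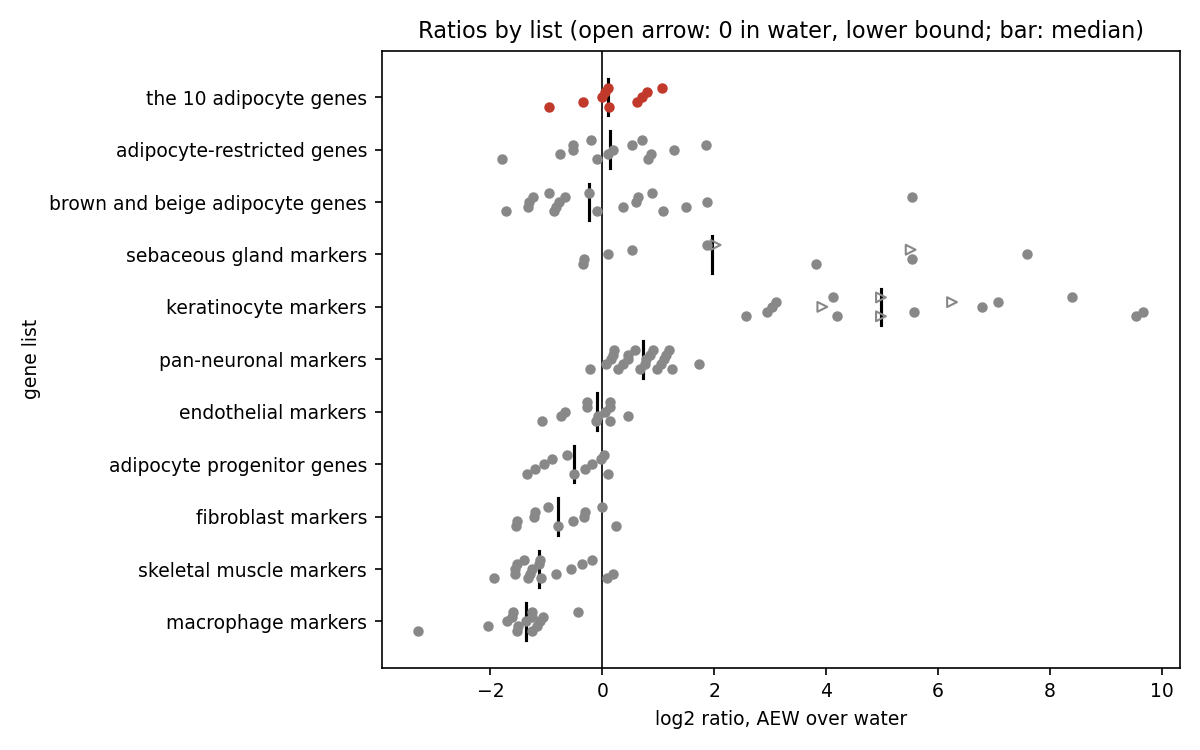
Log2 AEW over water ratio of every measured gene in 11 lists, where a vertical bar marks the list median and an open arrow a gene at 0 in the water library drawn at its lower bound. The 10 adipocyte genes (red) spread around 0 with a median of 0.11, keratinocyte and most sebaceous genes lie to the right, and macrophage genes (median -1.37) and most muscle genes (median -1.13) to the left. Scaling on pan-neuronal markers shifts every point left by 0.72.

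Regulators that drive fat cell genes were called in both directions, more of them lower. Among 13 measured adipogenic transcription factors 1 was called higher, 4 lower and 8 neither (median log2 ratio 0.06). Of all measured genes 17.3% were called higher and 14.9% lower. Cebpa, a master factor of adipocyte differentiation, had 10.2 CPM in the AEW library and 17.2 CPM in the water library, 1.69-fold lower (1.34 to 2.13). Cebpd, an early factor, and Nr1h3, a lipid-sensing receptor that macrophages also express, were 1.66-fold (1.46 to 1.88) and 1.58-fold (1.25 to 2.01) lower. Ebf2, a brown adipocyte factor, was 1.78-fold lower (1.58 to 2.01). Pparg had 12 counts in the AEW library and 7 in the water library, under the minimum, so it was not measured. Ebf1, an early B cell and adipocyte factor, was 1.78-fold higher (1.66 to 1.92). Klf5, a Krüppel-like factor of early differentiation, had a ratio of 1.22 (1.13 to 1.32) and was not called.

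Among progenitor genes all calls were lower. Of 11 measured, 5 were called lower and 0 higher (median -0.50), with Pdgfra, the receptor that marks fibroblasts and fat progenitors, 2.31-fold lower (1.94 to 2.75) and Icam1, an adhesion molecule, 2.54-fold lower (1.84 to 3.53). Zfp423, a factor of preadipocyte commitment, had a ratio of 1.08 (0.900 to 1.29) and Ly6a, the stem cell antigen Sca-1, of 0.982 (0.884 to 1.09). Fibroblast markers, which share Pdgfra, had 6 of 11 called lower and 0 higher (median -0.79).

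Lipid handling genes of fat cells, many of them active in other tissues, were called in both directions. Of 17 genes of triglyceride synthesis and the droplet 3 were called higher, 4 lower and 10 neither (median 0.30). Beside them stand 17.3% higher and 14.9% lower of all measured genes. Bscl2, the gene of seipin, was 1.62-fold higher (1.54 to 1.71) and Plin3, a perilipin of many tissues, 1.51-fold lower (1.37 to 1.67), while Gpam, the first acyltransferase of triglyceride synthesis, was 3.98-fold lower (1.57 to 11.3) at 7 and 17 counts. Plin2, the perilipin of non-fat tissues, had a ratio of 1.44 (1.28 to 1.62). Of 11 lipolysis genes 3 were called higher and 0 lower (median 0.18), among them Mgll, monoacylglycerol lipase, which is also a neuronal enzyme, 1.73-fold higher (1.65 to 1.81), and Ces1d, a fat carboxylesterase, 2.18-fold higher (1.19 to 4.27). Pnpla2, adipose triglyceride lipase, had a ratio of 1.04 (0.925 to 1.16). Abhd5, its co-activator, had 0.683 (0.606 to 0.770), and Pde3b, the phosphodiesterase through which insulin restrains lipolysis, 0.799 (0.680 to 0.940), neither called.

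Of 12 uptake genes 2 were called higher, 2 lower and 8 neither (median -0.18), near the 17.3% higher and 14.9% lower of all measured genes. Lpl, lipoprotein lipase, had 65.0 CPM in the AEW library and 63.0 CPM in the water library, a ratio of 1.03 (0.93 to 1.15). Slc27a4, a fatty acid transport protein, was 1.98-fold higher (1.78 to 2.204) and Ptrf, the caveolar coat protein cavin 1, 2.16-fold lower (2.09 to 2.23). Slc27a1, a further transport protein, was 3.23-fold higher (1.42 to 8.58) at 37 and 7 counts, and Vldlr, a lipoprotein receptor, 1.66-fold lower (1.45 to 1.89). Of 10 lipogenesis genes 2 were called higher and 0 lower (median -0.00). These were Elovl6, a fatty acid elongase, at 1.89-fold (1.74 to 2.05) and Slc25a1, the citrate carrier, at 1.52-fold (1.39 to 1.67). Thrsp, a lipogenic regulator, had a ratio of 0.674 (0.579 to 0.785) and Acly, which makes acetyl-CoA from citrate, of 0.933 (0.885 to 0.983), neither called. Among 8 measured genes around Pck1 in gluconeogenesis and glycerol synthesis, 1 was called higher, Fbp2, and 0 lower (median 0.47). Got1 and Mdh1, enzymes of the malate-aspartate shuttle, had ratios of 1.45 (1.34 to 1.57) and 1.33 (1.28 to 1.39). Gyk, glycerol kinase, had 0.844 (0.717 to 0.995) and Gpd1, glycerol-3-phosphate dehydrogenase, 0.916 (0.805 to 1.04). The liver enzyme G6pc had 0 counts in both libraries.

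Receptors of the adipokines were present as well. Adipor1 and Adipor2, the adiponectin receptors, had ratios of 1.14 (1.03 to 1.27) and 0.68 (0.62 to 0.74), neither called. Lepr, the leptin receptor, had 6.07 CPM in the AEW library and 14.7 CPM in the water library, 2.42-fold lower (1.84 to 3.20). Rarres2, the gene of chemerin, had 62.8 CPM in the AEW library and 192.8 CPM in the water library, 3.07-fold lower (2.83 to 3.33). Serpina12, the gene of vaspin, which skin also makes, had 27 counts in the AEW library and 0 in the water library, at least 5.50-fold higher against a floor of 3 counts per library. Of 13 measured genes in the list of other adipokines and receptors 1 was called higher, 3 lower and 9 neither, with a median of -0.39.

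The direction of the fat cell genes depends on what they are set against. Of 22 pan-neuronal markers 12 were called higher and 0 lower (median 0.72), summing to 17216 CPM in the AEW library and 11197 CPM in the water library. All 22 were detected in both libraries, which matches the label of neurons, but the glial, muscle, immune and fibroblast markers were detected too, so the RNA was not of neurons alone. Scaled on the pan-neuronal markers, which lowers every log2 ratio by 0.72, 0 of the 10 genes were called higher and 5 lower, namely Adipoq, Car3, Cfd, Cidec and Lep. Of all measured genes, 609 (4.1%) were then called higher and 8140 (54.8%) lower. On that scale Pck1 had a ratio of 1.28 (0.91 to 1.82) and Ucp1 of 1.05 (0.70 to 1.63). The same scaling gave 7 of 14 measured adipocyte-restricted genes, 11 of 19 brown and beige genes and 9 of 13 adipogenic factors called lower. These counts stand beside the 54.8% of all measured genes called lower. The proportions among the 10 genes do not depend on scaling.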

How the data were processed

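Dorsal root ganglion RNA was extracted with Trizol, and 500 ng per library went into a Lexogen Quant-Seq kit, per the labels' protocols. The authors deposited raw counts, whole numbers for each gene symbol. Bowtie2, bedtools and build mm10 are named in the submitters' processing notes; the sources used here do not give versions, annotation, strand use or the handling of multiply matching and duplicate reads.

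From the deposited counts, TMM library sizes (factors 1.03 for AEW and 0.970 for water) were computed with edgeR 4.0.16 in R 4.3.3. Ratios have exact 95% Clopper-Pearson intervals computed with SciPy 1.17.1. With 1 library per group, no p-value was computed. The 35 repeated symbols (79 rows) stayed in totals and out of calls. Gene lists held 275 symbols, of which 274 matched a row, and 1 list gene matched by another symbol. The members and lists were chosen with earlier results of these data known. Besides the 10 genes, the rule for naming took from each list the 2 genes with the highest lower bounds and the 2 with the lowest upper bounds, plus a fixed set of adipocyte genes. For lists of other cell types at most 2 of these are printed, except that all are printed for sebaceous gland markers. Kcnk3, Plin5, Pank1, Cpt1b, Otop1, Slc25a14, Slc25a27, Nr1h3, Fbp2 and G6pc were named after their values were seen. Alternatives were DESeq2 1.42.0 size factors, total count, upper quartile and pan-neuronal scaling, other count minimums, totals without ribosomal and haemoglobin or keratin rows, and stricter calls.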

Additional observations from a re-analysis of the deposited data

How the results depend on the processing

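The 4 calls among the 10 genes, Fabp4, Pck1, Retn and Ucp1, were the same genes under DESeq2 size factors, total count and upper quartile scaling, both other count minimums and both reduced totals, and under these the ratios stayed at 1.51 to 1.64, 2.06 to 2.24, 1.61 to 1.75 and 1.70 to 1.85. Under total count scaling the summed ratio was 1.26. Leaving out each gene in turn, it ranged over 1.07 (without Fabp4) to 1.26 (without Cfd). With a 2-fold threshold 1 of the 10 genes was called higher, Pck1, beside 1223 genes higher and 1018 lower of all, and 1 adipocyte-restricted gene, 4 brown and beige genes and 0 adipogenic factors were called lower. With intervals required to exclude 1.5-fold 1 was again called higher, Pck1, beside 1327 and 1071 of all, and 1, 5 and 1 genes of these lists were called lower. With a summed count of at least 100, 1 adipocyte-restricted gene was called lower, since fewer genes were tested.

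Scaling on pan-neuronal markers shifts the all-gene median log2 ratio by -0.72, by construction. It gave 609 genes higher (4.1%) and 8140 lower (54.8%), 0 of the 10 genes higher and 5 lower, and a summed ratio of 0.72. It also gave 7 of 14 adipocyte-restricted genes and 9 of 13 adipogenic factors lower. On it Cidec (0.63), Cfd (0.65), Car3 (0.66), Fabp4 (0.935) and Retn (0.996) turned below 1. No paired analysis was possible because each group is 1 pooled library. Depth limits Lep, Plin1, Ucp1 and Retn most, with fewer than 100 counts in each library.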

Other observations

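Of 10 measured Schwann cell and satellite glia markers 1 was called lower and 0 higher, with a median log2 ratio of -0.12. Neutrophil markers were called lower in 10 of 10, with a median of -1.52, beside Retn, which was called higher.

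The genes with at least 500 summed counts whose ratio lay nearest to that of the summed 10 genes were Tmem56, Zmat2, Cwc25, Syt4 and Tceanc2, at ratios of 1.19 each. With 2 libraries likeness means only an equal ratio, and 997 of 7041 such genes lay within 0.1 on the log2 scale.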
